A study of Homo sapiens with 12 samples.

Results

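The ZBTB genes encode transcription factors that carry a BTB domain and a set of C2H2 zinc fingers. The 10 members described here are ZBTB20, ZBTB34, ZBTB7B, ZBTB7A, ZBTB47, ZBTB5, ZBTB46, ZBTB4, ZBTB39 and ZBTB37. They are the 10 of 42 protein-coding genes with a symbol starting in ZBTB that held an AGO2 region, and they were chosen by the region numbers of these lists. Their regions were those that overlapped the RefSeq span of the gene by at least 1 base on the gene's strand. This gave 44 of the 2921 regions found with FH-AGO2 5xA and 17 of the 1190 regions found with FH-AGO2 WT. The number, position, spacing and sharing of these regions chose the members, so they are described below and not tested.

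AGO2 is the Argonaute protein that carries a miRNA and, guided by the miRNA's seed, rests on matching sites of mRNAs, most often in the 3' UTR. BTB zinc finger proteins bind DNA with their fingers, and many use the BTB domain to pair with one another and to draw in corepressor complexes. Several act as switches of cell identity.

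RNA bound to AGO2 was mapped by eCLIP, in which ultraviolet light links RNA to protein and the RNA fragments that come down with the immunoprecipitated protein are sequenced. It was done in HCT116, a line established from a human colorectal carcinoma, after 48 h of culture and an ultraviolet dose of 400 mJ/cm2. The groups used were the anti-FLAG immunoprecipitates of cells carrying the mutant FH-AGO2 5xA, in which alanines take the place of a cluster of phosphorylation sites, and of cells carrying FH-AGO2 WT, with the same tag. The 12 samples form 6 groups of 2, an immunoprecipitate and an input for each of FH-AGO2 5xA, FH-AGO2 WT and AGO2_KO cells, and the 8 others were not analysed here. The sources used here do not say how the tagged proteins were introduced or whether each line is a clone.

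The deposited data used were 1 region list for each form, which pools its 2 replicates. There is thus no replicate error to set a difference against, and no read depth behind a region. With 5xA the whole list was longer by a ratio of 2.45, and whether its length reflects binding, depth or calling cannot be told apart. Intervals given after shares below are 95% exact (Clopper-Pearson) intervals. They cover counting error only and treat the regions of a gene as independent. Of 14 colorectal epithelial markers, VIL1 (1 region with 5xA and 0 with WT) and CLDN4 (1 and 2) held regions. Of 9 fibroblast markers, COL1A1 (4 and 2), COL6A1 (1 and 0) and COL6A2 (1 and 0) did, and of 8 blood cell markers 0 did. Over all protein-coding genes, 7.44% held a region with 5xA and 3.35% with WT. A region needs AGO2 on the mRNA as well as the mRNA itself, so these counts do not measure expression.

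The ZBTB members held 44 regions with 5xA and 17 with WT, a ratio of 2.59 beside the 2.45 of the whole lists. Together they took 1.51% (1.10 to 2.02) of the 5xA list and 1.43% (0.834 to 2.28) of the WT list. The ZBTB set as a whole was therefore extended with 5xA about as much as the list it belongs to. The added regions were uneven within the set. ZBTB20, ZBTB34, ZBTB7B and ZBTB7A, the 4 genes with the most 5xA regions, held 36 of the 44 regions with 5xA. They held 12 of the 17 with WT, a ratio of 3, and the other 6 genes held 8 and 5, a ratio of 1.6. A split by 5xA number by itself tends to part these ratios, so their difference was not tested.

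**Figure D1:**
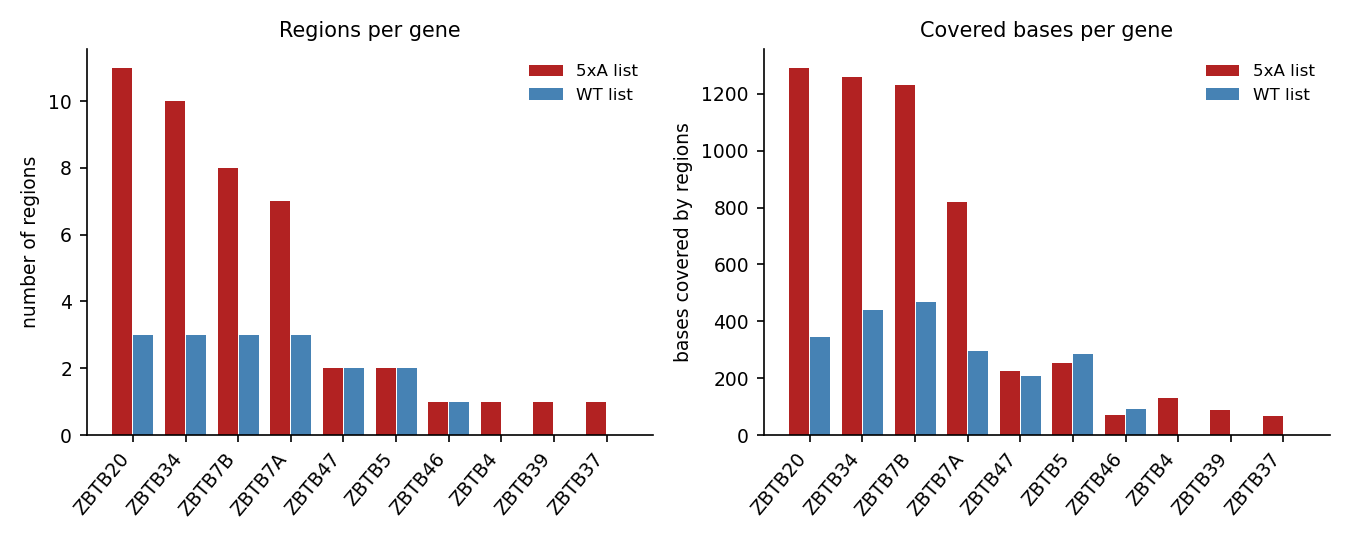
Number of regions (left) and bases covered by regions (right) in each of the 10 ZBTB genes, with the 5xA list in red and the WT list in blue. ZBTB20, ZBTB34, ZBTB7B and ZBTB7A hold 7 to 11 regions with 5xA and 3 each with WT, and ZBTB4, ZBTB39 and ZBTB37 hold 1 with 5xA and 0 with WT.

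All 10 genes held a region with 5xA and 7 held one with WT. That is 23.8% and 16.7% of the 42 ZBTB genes, beside 7.44% (5xA) and 3.35% (WT) of all 20056 protein-coding genes. In these shares a gene without a known strand was met by regions of either strand. The genes were picked for being bound, so nothing is read from this difference. The comparison shares that follow are over the 15843 protein-coding genes for which a strand was known. Of those, 7.66% (5xA) and 3.44% (WT) held a region. All 7 genes met by WT were met by 5xA too, beside 89.0% of the 545 protein-coding genes met by WT. Of the 10 genes met by 5xA, 3 were met by 5xA alone, beside 60.0% of the 1214 protein-coding genes met by 5xA. Among the 7 genes of both lists, 4 held more regions with 5xA, 3 held as many and 0 held fewer. The same 4 genes held at least 2 times as many with 5xA as with WT, as did 39.0% of all genes of both lists. Over all 485 protein-coding genes in both lists the shares were 49.7% with more, 43.9% with as many and 6.39% with fewer.

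ZBTB20, which represses the alpha-fetoprotein gene in the mouse liver and is needed in the developing mouse hippocampus, held 11 regions with 5xA and 3 with WT. The gene spans chr3:114314500-115147288 on the minus strand of hg38, 832789 bases with 8 annotated start sites. At 3 places in the last 5 kb of this long gene the lists overlapped, with midpoints 659, 2338 and 4639 bases from the downstream end with 5xA and 644, 2353.5 and 4639 bases from it with WT. The gene held no other WT region, and each of the 3 lay wholly inside its 5xA region. The best matched of these pairs was 143 bases wide with 5xA (chr3:114319068-114319210) and 137 bases wide with WT (chr3:114319071-114319207), with edges 3 bases apart on each side. The 8 added 5xA regions fell into different parts of the gene. In the last 5 kb there were 5, between 1044 and 4324.5 bases from the end, so that WT and 5xA regions marked out the same stretch (4109 bases with 5xA and 4103 bases with WT). The remaining 3 lay at 22595, 23095 and 23813 bases, in a cluster from chr3:114337066 to chr3:114338367 that had no WT region within 17858 bases. An empty gap of 17855 bases parted this cluster from the others.

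2 miRNA genes lie within the span of ZBTB20, and none lies within the spans of the other members. Their mature sequences are shown because AGO2 regions can lie on a miRNA gene as well as on an mRNA. Capitals mark the seed, bases 2 to 8, and the sequences are from RefSeq on GRCh38.p14.
hsa-miR-568: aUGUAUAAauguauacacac
hsa-miR-4796-3p: uAAAGUGGcagaguauagacac
hsa-miR-4796-5p: uGUCUAUAcucugucacuuuac
The 3 seeds differ from each other. The miR-568 sequence (chr3:114316535-114316554, minus strand) lies 2044.5 bases from the downstream end of ZBTB20, between regions of both lists. The nearest 5xA region was 202 bases away and the nearest WT region 235 bases away, so no region of either list covered the mature miRNA. The miR-4796-3p sequence lies 428962.5 bases from the downstream end, and its nearest region was 405084 bases away with 5xA and 424244 bases away with WT.

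ZBTB34 held 10 regions with 5xA and 3 with WT, all in the last 5 kb of chr9:126860639-126885878 (plus strand, 25240 bases, 1 annotated start). The 5xA regions formed a pair of clusters of 5 each. The cluster nearer the end ran from chr9:126884494 to chr9:126885685, with midpoints 278.5, 522, 782, 960 and 1351 bases from the end. The farther cluster ran from chr9:126881691 to chr9:126882993, with midpoints 2962, 3558, 3741.5, 3862 and 4086 bases from the end. A gap of 1500 bases without a 5xA region lay between them. WT regions sat in both clusters, at 277.5 bases in the nearer cluster and at 3595 and 4036.5 bases in the farther cluster, and all 3 overlapped 5xA regions. The WT region closest to the end (chr9:126885514-126885687, 174 bases) began at the same base as its 5xA counterpart (chr9:126885514-126885685, 172 bases). Between the 2 WT regions of the farther cluster lay 5xA regions of 67 and 140 bases, and the 140 base region stopped 3 bases short of a WT region. The 10 regions covered 1260 bases with 5xA, and the 3 regions covered 441 bases with WT.

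ZBTB7B, known as ThPOK, which commits developing T cells to the CD4 helper lineage, held 8 regions with 5xA and 3 with WT. They lay at the end of chr1:155001750-155018523 (plus strand, 16774 bases, 2 annotated starts). This was the most closely packed gene of the set. The 8 regions with 5xA filled 55.4% of a stretch of 2225 bases, and the 3 with WT filled 32.9% of a stretch of 1421 bases. With 5xA the midpoints lay 178.5, 368, 504, 704.5, 1047, 1258, 1486.5 and 2221.5 bases from the end. With WT they lay 161.5, 1037.5 and 1458.5 bases from the end, and each WT region overlapped a 5xA region. 3 of the 7 gaps between neighbouring 5xA regions were 6, 8 and 12 bases long, so that adjoining regions nearly touched. The widest region of the whole set was here, 261 bases with 5xA (chr1:155017346-155017606) around a WT region of 220 bases (chr1:155017376-155017595). The regions closest to the end shared their downstream edge at position 155018444, and the 5xA region began 34 bases farther upstream.

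ZBTB7A, known as LRF or Pokemon, a repressor of the fetal globin genes, held 7 regions with 5xA and 3 with WT. The gene spans chr19:4043303-4066899 on the minus strand, 23597 bases with 2 annotated starts. It was the member with the least sharing among those with several regions, since 1 of the 7 5xA regions and 1 of the 3 WT regions overlapped. The shared place was 3878.5 bases from the end with 5xA (chr19:4047100-4047263, 164 bases) and 3857 bases with WT (chr19:4047084-4047236, 153 bases). With 5xA the unshared midpoints lay 109, 240, 504, 2137.5, 2733 and 11402.5 bases from the end. The last of these, chr19:4054658-4054753, was near the middle of the gene span, 7394 bases from the next 5xA region. Both unshared WT regions lay between 5xA regions. The WT region at chr19:4043645-4043721 had a 5xA region 48 bases upstream of it and another 55 bases downstream. The WT region at chr19:4044835-4044899 was 499 and 990 bases from its 5xA neighbours. The paralogs ZBTB7A and ZBTB7B thus held 3 WT regions each, of which 1 and 3 overlapped a 5xA region.

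**Figure D2:**
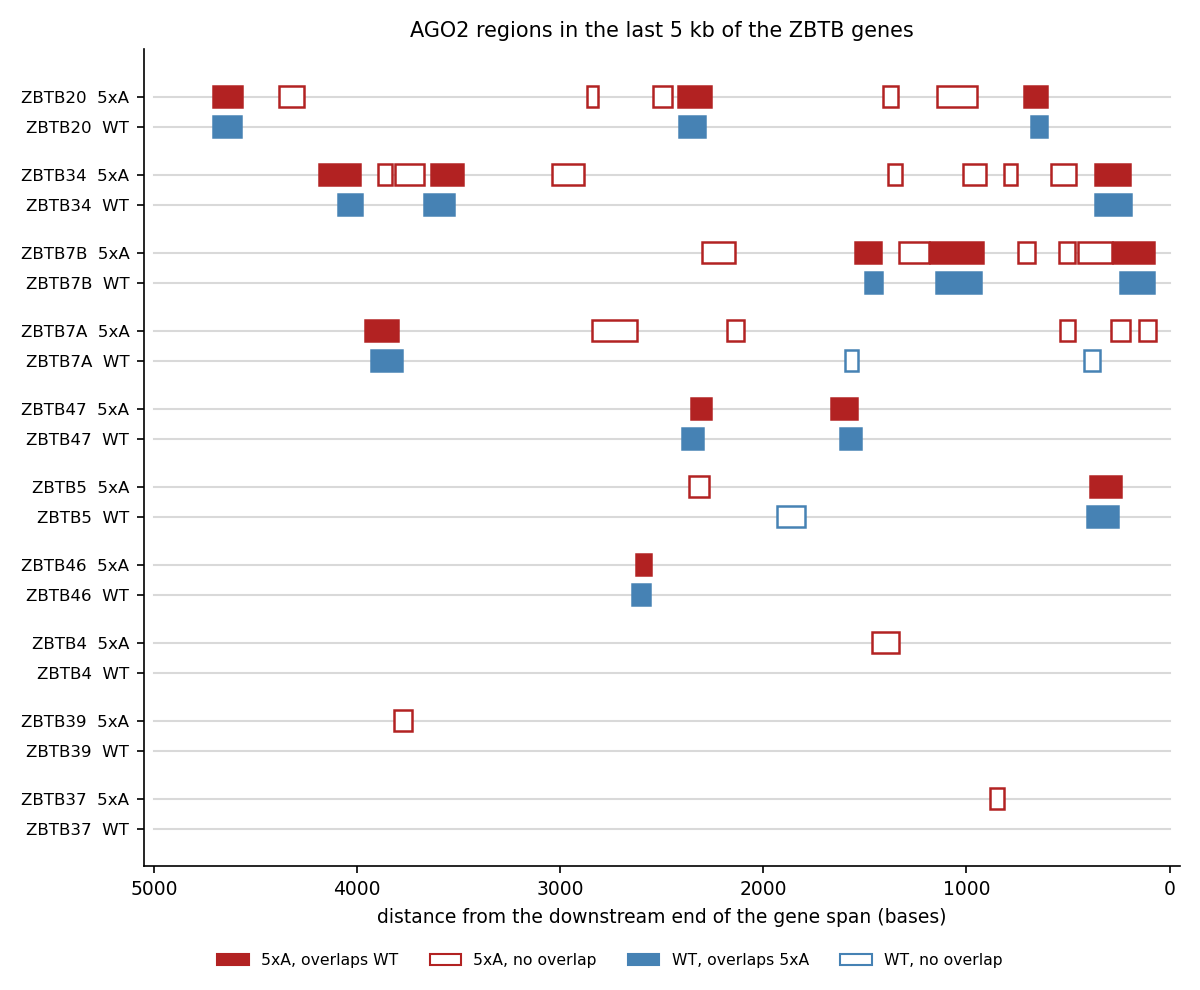
Regions in the last 5 kb of the 10 ZBTB genes, drawn to scale by distance in bases from the downstream end of the gene span (0 at right), with 5xA (red) above WT (blue). Filled boxes overlap a region of the other list and open boxes do not; 4 5xA regions lie beyond the axis, 3 in ZBTB20 and 1 in ZBTB7A.

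The remaining members held 1 or 2 regions. ZBTB47 held 2 regions in each list, all shared, on chr3:42652931-42667580 (plus strand). They lay 1602 and 2305.5 bases from the end with 5xA and 1570 and 2348.5 bases from it with WT. ZBTB5, a reported repressor of the CDK inhibitor gene CDKN1A, also held 2 in each list, on chr9:37438102-37465450 (minus strand). The places at 314.5 bases (5xA) and 329.5 bases (WT) from the end overlapped. The other places did not, at 2315.5 bases with 5xA and 1864.5 bases with WT, with a gap of 334 bases between them. ZBTB5 thus had an equal number of regions in each list, of which 1 was shared and 1 lay at a different place. In total the regions of ZBTB5 covered 254 bases with 5xA and 286 bases with WT. Its shared place also lies in the span of GRHPR, which runs on the other strand, and it was the only place among the ZBTB regions with another annotated gene.

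ZBTB46, a marker of classical dendritic cells, held 1 region in each list, on chr20:63743670-63833895 (minus strand). The regions lay 2589.5 bases from the end with 5xA (chr20:63746224-63746295, 72 bases) and 2601.5 bases with WT (chr20:63746227-63746316, 90 bases). ZBTB4, a relative of Kaiso that binds methylated DNA, held 1 region with 5xA (chr17:7460712-7460841, 130 bases) and 0 with WT. ZBTB39 held 1 with 5xA (chr12:57002567-57002653, 87 bases) and 0 with WT, and ZBTB37 held 1 with 5xA (chr1:173902666-173902731, 66 bases) and 0 with WT. The regions of these 3 genes lay 1398.5, 3774 and 848.5 bases from the downstream end. A lone 5xA region in a gene without a WT region was a common pattern, found in 582 protein-coding genes outside the family.

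The 4 genes with 3 WT regions each were set beside the 25 other protein-coding genes of known strand that also held exactly 3 WT regions. ZBTB20, ZBTB34, ZBTB7B and ZBTB7A held 11, 10, 8 and 7 regions with 5xA. The 25 other genes held a median of 4 with 5xA (quartiles 2 and 5, lowest 1, highest 10), and 2 of them held 7 or more. All 4 ZBTB numbers were above the upper quartile of the 25 other genes. Region numbers chose the ZBTB members but not the 25 genes, so nothing is read from this difference. Region numbers depend on how neighbours are split, as at the ZBTB7B gaps of 6, 8 and 12 bases with 5xA. The match was not repeated on joined regions. Among the 1214 genes with a 5xA region, the members included, 2.39% held at least 7, and 4 of the 10 members did. Of these genes, 4 held more 5xA regions than ZBTB20, 6 more than ZBTB34, 17 more than ZBTB7B and 22 more than ZBTB7A. The gain in regions, 5xA minus WT, was 8 in ZBTB20, 7 in ZBTB34, 5 in ZBTB7B and 4 in ZBTB7A, and 2, 3, 7 and 12 genes had a larger gain. These ranks count the other members too, use the values that chose the members and are no test of them.

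Read over the same length in every gene, the last 5 kb, the order of the members changed. Regions covered 25.2% of this window in ZBTB34, 24.6% in ZBTB7B, 19.4% in ZBTB20 and 14.4% in ZBTB7A with 5xA. With WT they covered 8.82% in ZBTB34, 9.36% in ZBTB7B, 6.88% in ZBTB20 and 5.90% in ZBTB7A. ZBTB20, first by number of regions, was the third by coverage, since 3 of its 5xA regions lay outside the window. Of the 1026 genes with a 5xA region in this window, the members included, 19 had more bases covered than ZBTB34 and 20 more than ZBTB7B. The coverage of ZBTB47 was 4.50% with 5xA and 4.14% with WT and that of ZBTB5 was 5.08% and 5.72%, so in these genes the lists covered much the same amount.

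Regions of both lists lay toward the downstream end of the ZBTB genes, the side of the 3' UTR, whose borders were not used here. Of the 5xA regions 40 of 44 (90.9%, 78.3 to 97.5) lay within 5 kb of the end, and of the WT regions 17 of 17 (100%, 80.5 to 100). In genes over 10 kb the shares were 90.7% (77.9 to 97.4) with 5xA and 100% (80.5 to 100) with WT. Over all protein-coding genes of that length they were 79.7% (77.8 to 81.6) with 5xA and 82.1% (79.0 to 84.9) with WT. Position was part of what chose the members, and all genes include the ZBTB genes, so these differences were not tested. The median distance from the end was 1869.8 bases with 5xA and 1570 bases with WT in the ZBTB genes, against 1430.5 and 1368 bases over all protein-coding genes. All 44 5xA regions and all 17 WT regions lay downstream of every annotated start of their gene, by at least 3936 bases. For the 6 members with 1 annotated start, this follows from lying inside the span. In ZBTB20, ZBTB7B, ZBTB7A and ZBTB47 the regions fell downstream of all alternative starts, including the 8 of ZBTB20.

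In the ZBTB genes that WT met, 27 5xA regions overlapped no WT region. Of these, 19 lay between the outermost WT regions of their gene, in ZBTB34 (7), ZBTB20 (5), ZBTB7B (4) and ZBTB7A (3). The other 8 lay outside them, in ZBTB20 (3), ZBTB7A (3), ZBTB7B (1) and ZBTB5 (1). Such a count depends on how far apart the outermost WT regions lie. It was not made over all genes, so nothing particular to the ZBTB genes is read from it. With 5xA the midpoints of neighbouring regions of a gene were a median of 343.2 bases apart (34 neighbour pairs, 120.5 to 17956 bases; 95% interval of the median 228.5 to 703.5). With WT the median was 1359.5 bases (10 pairs, 421 to 3317.5 bases; interval 441.5 to 2293). Over all protein-coding genes the medians were 395.8 bases with 5xA (964 pairs, interval 363.5 to 435) and 412.2 bases with WT (322 pairs, interval 361 to 450). The medians over all genes include the ZBTB genes. Of the ZBTB gaps 32.4% with 5xA and 0 of 10 with WT were 100 bases or shorter, beside 34.2% and 35.4% over all genes. Neighbouring pairs share a region, the WT gaps are few, and the spacing was part of what chose the members, so the difference was not tested.

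**Figure D3:**
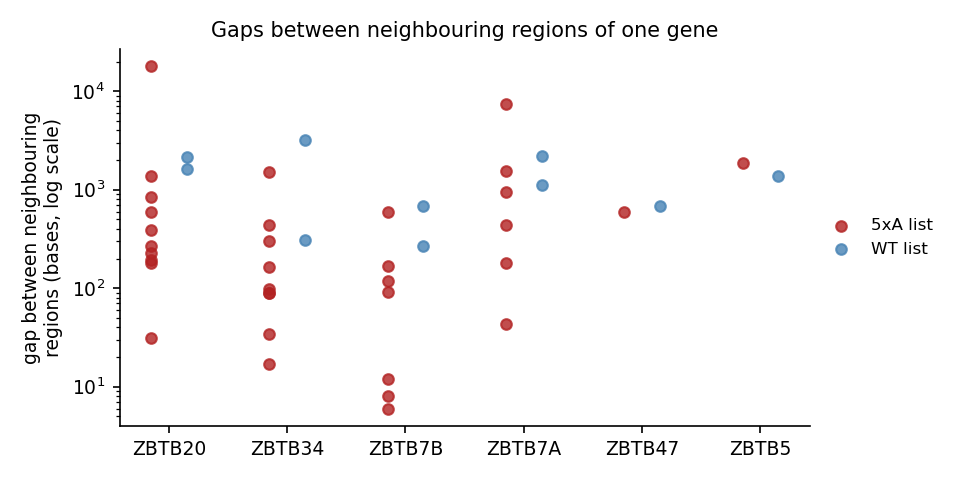
Gaps in bases between neighbouring regions of the same gene (log scale) in the 6 ZBTB genes with at least 2 regions in a list, with 5xA in red and WT in blue. Of the 34 5xA gaps 11 are 100 bases or shorter, and the 10 WT gaps lie between 270 and 3157 bases.

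In the ZBTB genes 14 of the 44 5xA regions (31.8%, 18.6 to 47.6) met a WT region, and 14 of the 17 WT regions (82.4%, 56.6 to 96.2) met a 5xA region. The whole lists gave 32.3% of 5xA and 81.3% of WT regions. Sharing in the ZBTB genes was thus at the level of the lists. The regions marked 47 places in all, of which 14 were common to the lists, 30 came from 5xA alone and 3 from WT alone. The 3 places with WT only were in ZBTB7A and ZBTB5. Of the 30 5xA regions without overlap, 27 fell in genes with a WT region of their own and 3 in ZBTB4, ZBTB39 and ZBTB37. Among those 27, the gap to the nearest WT region of the gene had a median of 334 bases, against 387.5 bases over all protein-coding genes. It was 50 bases or shorter for 5 of them, and over 1000 bases for 4, the distant regions of ZBTB20 and ZBTB7A.

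Each of the 14 shared places was a pair of 1 region from each list. A median of 93.6% of the WT region lay inside the 5xA region, with the lowest value, 56.9%, in ZBTB47, and 5 of the 14 WT regions lay wholly inside. A median of 80.8% of the 5xA region lay inside the WT region, with the lowest value, 55.2%, in ZBTB34. The 5xA region was the wider in 11 of 14 pairs and the WT region in 3, with a median difference (5xA minus WT) of 16 bases and a range of -18 to 83 bases. Over all 847 such pairs of the lists, the 5xA region was the wider in 66.8%, with a median difference of 14 bases. The 3 pairs with a wider WT region were in ZBTB46, ZBTB34 and ZBTB47, by 18, 2 and 2 bases. The largest difference was at the farthest ZBTB34 place, 203 bases with 5xA and 120 bases with WT. On the upstream side the 5xA region reached farther in 9 pairs, less far in 4 and as far in 1, and on the downstream side in 8, 5 and 1.

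**Figure D4:**
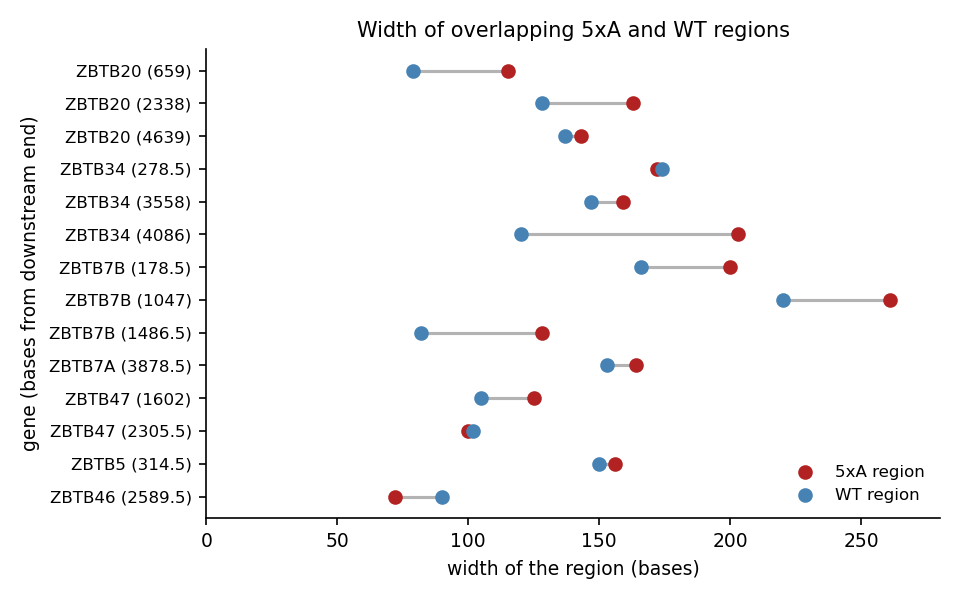
Width in bases of the 5xA region (red) and the WT region (blue) at each of the 14 shared places in ZBTB genes, named by gene and by the distance of the 5xA midpoint from the downstream gene end. The red point lies to the right in 11 of 14 pairs.

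Shared regions also had a higher median width than unshared regions in both lists. With 5xA the 14 shared ZBTB regions had a median width of 157.5 bases (72 to 261) and the 30 unshared ones 95 bases (58 to 223), with ranges that overlapped. With WT the 14 shared regions had a median of 132.5 bases (79 to 220) and the 3 unshared ones measured 65, 77 and 136 bases. Over the whole lists the medians were 145 bases for shared and 93 bases for unshared 5xA regions, and 121 and 91 bases for WT. By the overlap rule alone, wide regions are more readily shared than narrow ones. All ZBTB regions together had a median width of 118 bases with 5xA and 128 bases with WT. Over the whole lists the median width of all regions was 104 bases with 5xA and 114 bases with WT.

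Related genes were read in the same way. HIC2 was the only bound one of 8 BTB zinc finger genes with other names, with 9 regions in each list. ZBTB20 and ZBTB34 held 8 and 7 more regions with 5xA than with WT, and HIC2, a transcriptional repressor, held as many. So did ZBTB47, ZBTB5 and ZBTB46, and 43.9% of all protein-coding genes in both lists. Of 79 BTB genes without zinc fingers (KLHL, KBTBD, BTBD and KCTD) 10 (12.7%) were bound with 5xA and 4 (5.06%) with WT, and of 517 ZNF genes 29 (5.61%) and 12 (2.32%). Of 20 genes for corepressor and nucleosome remodelling partners of BTB zinc finger proteins, 6 were bound with 5xA and 2 with WT. SIN3B, the scaffold of a histone deacetylase complex, held 2 regions with 5xA and 1 with WT, and CHD4, the ATPase of the NuRD complex, held 1 and 1. BCORL1, MTA2, GATAD2A and MBD3 held 1 each with 5xA and 0 with WT. Over all 20056 protein-coding genes, counted by the same rule, 7.44% were bound with 5xA and 3.35% with WT. The differences between these lists, all genes and the ZBTB genes were not tested.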

How the data were processed

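The deposited files are BED tables of 6 columns, 1 for 5xA and 1 for WT, which the sample descriptions give for both IP replicates of a form, so replicates were pooled by the authors. The deposited score is 0 in every row and was not used. The other columns used hold positions in bases on hg38. Per the submitters' processing notes, that build was used with cutadapt 1.9.1 and TopHat2. Not given in the sources used here are the peak caller, its cutoff, how replicates were merged and what the input and AGO2_KO libraries were used for, any of which could change the number and width of regions. Libraries took 11 to 15 PCR cycles, per the labels' protocols.

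Gene spans came from a RefSeq table of GRCh38.p14. Strand and annotated starts came from a RefSeq promoter table, which matched 15843 of 20056 protein-coding genes and 36 of 42 ZBTB genes. No region lay in the spans of the 6 others (ZBTB17, ZBTB40, ZBTB41, ZBTB10, ZBTB6 and ZBTB16). In counts for gene lists, a gene without a strand was met by regions of either strand. No region lay on the other strand of the 10 members. Distances run from the midpoint of a region to the downstream end of the span. Regions were shared when at least 1 base overlapped on their strand, counted in Python 3.11.15 and checked with bedtools 2.31.1. On simulated lists with 120 planted shared regions, 120 were found. No test was made, since the members were chosen on these lists. The members, gene lists and alternatives were chosen with earlier results of these data known. Named were the 10 members, other bound ZBTB genes (0 were found), bound genes of the BTB zinc finger and partner lists, and bound cell type markers. 1 gene of the partner list is not reported here.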

Additional observations from a re-analysis of the deposited data

How the results depend on the processing

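No paired analysis was possible because each list pools its replicates and no result comes from a test. Of 60 alternative values, 56 stayed within 1.5 times a count or inside the 95% exact interval of a share or median, and 4 moved. A 2 kb window lowered the share of ZBTB regions near the downstream end to 50% with 5xA and 58.8% with WT, and a 10 kb window left it at 90.9% and 100%. Measured as the gap between edges, the 5xA spacing was 210.5 bases, shorter by construction. Only regions within 5 kb of the downstream end, in genes with a known strand, left 16 bound ZNF genes with 5xA, an alternative chosen after seeing the data, as were all alternatives for related genes. Joining regions within 50 bases left 37 5xA and 17 WT regions. Counting regions within 50 bases as shared raised the shared part to 43.2% with 5xA and 88.2% with WT. Neither reciprocal overlap of 50% nor either strand changed a ZBTB value. Depth is unknown, so how many regions each library could have shown cannot be said.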
